A study of Arabidopsis thaliana with 24 samples.

Results

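Salt reaches a plant through its roots and is dealt with in both organs, and the comparison described here sets the roots of salt-grown Arabidopsis against their shoots. It consists of the 3 root libraries and the 3 shoot libraries of wild-type (Col-0) diploids grown with NaCl, 6 libraries of the 24 in the series, and the members were taken by the organ, ploidy and treatment named in the sample labels. The NaCl roots and NaCl shoots came from diploid plants kept for 2 weeks on agar-solidified 1/4-strength Hoagland medium with sucrose and 35 mM added NaCl. The control roots and control shoots, 3 libraries each, came from diploids on the same medium without NaCl, and they were used to ask whether an organ difference was also there without salt and to share the estimate of spread. The neo-tetraploids (12 libraries), which carry a duplicated genome, were not compared. All the diploid groups were of the same wild type and differed in organ and NaCl. Each replicate held plants pooled within a single experiment, so the p-values measure the spread between such pools, and whole organs were sampled, so that a difference can come from other cells or from other levels per cell, and fewer cells of a type and less RNA per cell cannot be told apart.

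The genes described are those of ion transport, water movement, barrier polymers and stress response. In outline, Na+ enters root cells through cation pathways, is pumped out or into the vacuole by exchangers that run on the H+ gradient, and moves to the shoot in the xylem, where retrieval back into the surrounding cells limits what reaches the leaf. The salt overly sensitive (SOS) pathway links Ca2+ sensors to a kinase that activates the plasma membrane Na+/H+ exchanger. K+ is taken up by root channels and transporters and released to the xylem by outward channels, and in leaves it drives the swelling of guard cells. Water moves through aquaporins, and the Casparian strip and suberin of the root endodermis and the cutin and wax of the shoot epidermis limit what passes between cells or evaporates. Abscisic acid (ABA) is the hormone made under water deficit, and dehydrins, late embryogenesis abundant proteins, proline, galactinol and enzymes that remove reactive oxygen are made in its wake.

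Between 11278640 and 11654815 expected counts were assigned to genes in each of the 6 libraries. The libraries carried the mark of their organ. All 20 shoot marker genes (photosynthesis, trichome and stomatal genes) were higher in NaCl shoots. All 15 root marker genes (among them root hair, root cap, meristem and nutrient uptake genes) were higher in NaCl roots. The shoot markers took 0.0306% to 0.0642% of the counts in NaCl roots and 7.54% to 9.55% in NaCl shoots, and the root markers took 0.80% to 1.19% in NaCl roots and 0.0279% to 0.0443% in NaCl shoots. Log2 fold changes of the most abundant markers were -8.20 for LHCB1.3, -8.31 for RBCS1A and -7.94 for LHCA1 on the shoot side, and 4.05 for BGLU23 and 6.90 for PHT1;1 on the root side, and RBCS1B, RBCS2B and RBCS3B, near-identical copies whose separate values are uncertain, had -12.81, -12.48 and -11.63. The trichome regulator GL1 and the stomatal regulator FAMA had no count in any NaCl root, and the root cap genes BRN1 and FEZ, the root meristem regulator PLT1, the root hair regulator RSL4 and the iron transporter IRT1 had none in any NaCl shoot. The 20 most abundant genes held 7.79% to 10.9% of the counts in NaCl roots and 18.7% to 21.1% in NaCl shoots, and genes of the chloroplast genome held 0.107% to 0.145% in NaCl roots and 4.85% to 6.34% in NaCl shoots. Counts were therefore scaled by the trimmed mean of M-values (TMM), whose factors were 1.26 to 1.32 in NaCl roots and 0.753 to 0.845 in NaCl shoots. Levels below are the deposited FPKM (fragments per kilobase of gene length, scaled to the mapped reads of the library) divided by that factor, and every FPKM value in this text is on that scale, given in the order of replicates 1, 2 and 3.

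A gene was called when it differed at least 2-fold between the organs and edgeR's quasi-likelihood test put it below 0.05 after Benjamini-Hochberg adjustment. Of 20965 genes tested, 4545 (21.7%) were called higher in NaCl roots and 4610 (22%) higher in NaCl shoots, 43.7% in either direction, with a median log2 fold change of 0.02. Log2 fold changes are root over shoot throughout and are given with their standard error. The direction of weak differences depended on the scaling. With library size as the only scaling all log2 fold changes moved by a median of 0.71 towards roots, and 8239 genes were called higher in roots and 3198 in shoots, so that roots held 72.04% of the calls in place of 49.65%. A weak call towards shoots can therefore be lost under that scaling and a weak difference towards roots can be gained, and the members concerned are named beside each group. The 16 lists held 351 tested genes, among them the 20 shoot and 15 root markers above, which were picked to differ by organ and were all called. Of the 351, 217 were called, and 215 of these had the same sign in the control plants. Called in the same direction in the controls were 196 of the 217, markers included. Over all genes, 3912 of the 4545 root calls and 4024 of the 4610 shoot calls were also made in the controls.

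**Figure D1:**
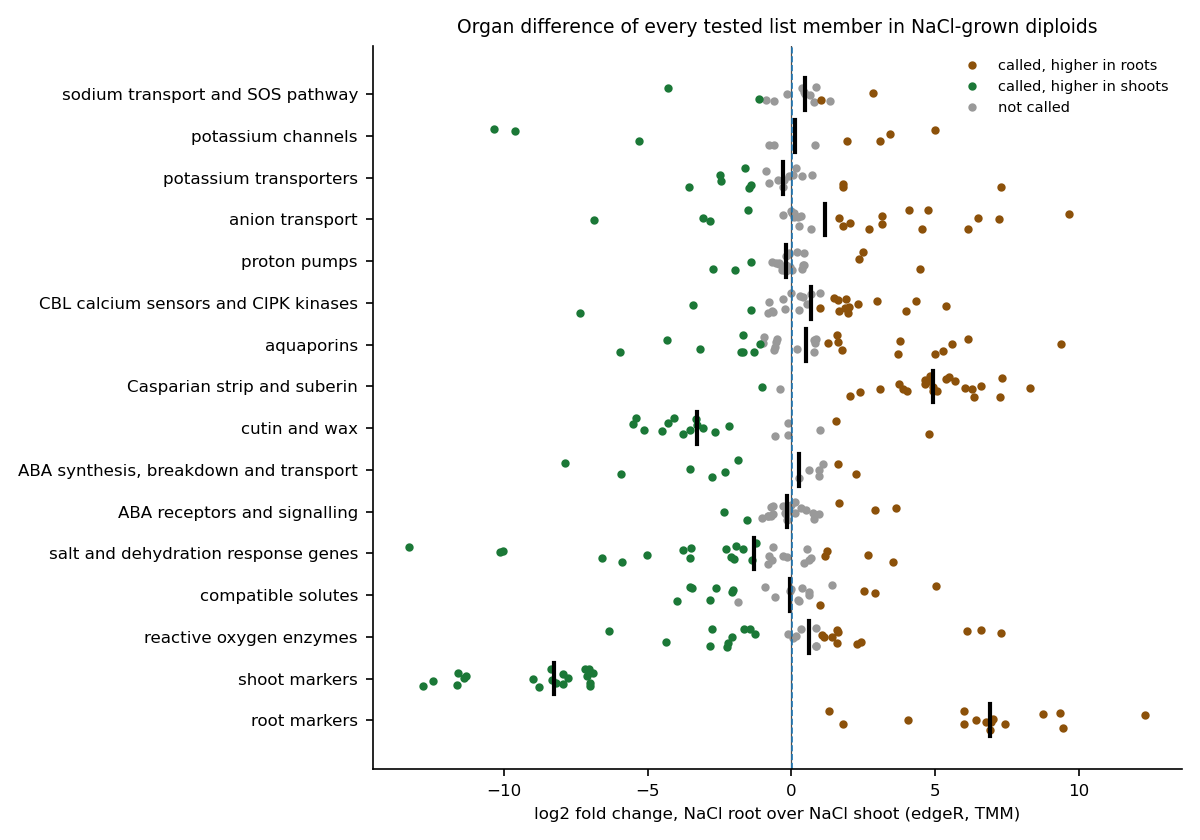
Log2 fold change, NaCl root over NaCl shoot, of every tested member of the 16 gene lists (edgeR, TMM scaling), with 1 point per gene; brown points were called higher in roots, green points higher in shoots and grey points were not called, the black bars are list medians and the dashed line is the median of all 20965 genes (0.02). Casparian strip and suberin genes sit to the right with a median of 4.92 and cutin and wax genes to the left with a median of -3.27.

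A few libraries stood apart in some groups of genes. NaCl shoot replicate 2 was the highest of the 3 NaCl shoots in 21 of the 30 salt and dehydration response genes, with a median ratio of 1.90 to the geometric mean of the other shoots, while over all genes tested it was highest in 35.9% with a median ratio of 1.00. NaCl root replicate 2 was the highest root for 18 of the 28 genes of that list with a level above 0 in every root, with a median ratio of 1.37. NaCl root replicate 1 was the lowest root in 24 of the 29 aquaporins above 0 in every root, with a median ratio of 0.74. NaCl root replicate 3 was the lowest root for each of the 17 shoot markers above 0 in every root, with a median ratio of 0.42. Over all 20462 tested genes above 0 in every root, replicate 2 was the highest root in 31.7%. Replicates 1 and 3 were the lowest root in 7433 and 7035 of these genes. Calls that were lost without 1 NaCl library are given beside the genes.

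Of the 14 tested genes of sodium transport and the SOS pathway, 2 were called higher in roots and 2 higher in shoots, with a median log2 fold change of 0.46. The called share was 28.6% of the list against 43.7% of all genes. The median was smaller than the shift of 0.71 between the scalings. The clearest contrast lay between the SOS pathway's pair of Ca2+ sensors. SOS3, the sensor that activates the SOS2 kinase and is known from roots, had 15.9, 15.6 and 13.5 FPKM in NaCl roots, against 1.97, 1.86 and 2.39 FPKM in NaCl shoots (log2 fold change 2.85 ± 0.19, edgeR adjusted p = 7.04e-08). CBL10, the sensor known to take that place in shoots, had 1.01, 1.65 and 1.04 FPKM in NaCl roots, against 28.8, 20.1 and 25.2 FPKM in NaCl shoots (log2 fold change -4.31 ± 0.30, edgeR adjusted p = 7.67e-08). The sensors thus had opposite organ differences, with no overlap between the organs in either case.

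The enzymes and exchangers downstream of the sensors differed less. SOS1, the plasma membrane Na+/H+ exchanger, had 11.8, 11.1 and 11.7 FPKM in NaCl roots, against 6.01, 7.05 and 6.87 FPKM in NaCl shoots, a difference below 2-fold (log2 fold change 0.80 ± 0.12, edgeR adjusted p = 0.000121). SOS2, the kinase between sensor and exchanger, had 6.17, 4.62 and 5.67 FPKM in NaCl roots, against 5.3, 3.21 and 4.32 FPKM in NaCl shoots, and the organs overlapped (log2 fold change 0.37 ± 0.19, edgeR adjusted p = 0.0992). CIPK8, a kinase of the same family that can pair with CBL10, had 39.8, 41.4 and 41.2 FPKM in NaCl roots, against 21.5, 26 and 19.9 FPKM in NaCl shoots, again below 2-fold (log2 fold change 0.86 ± 0.13, edgeR adjusted p = 0.000114), though it was called higher in roots without NaCl shoot replicate 2 (log2 fold change 1.02). HKT1, the transporter that withdraws Na+ from the xylem, was low and scattered. Its levels were 2.99, 1.62 and 0.388 FPKM in NaCl roots, against 0.325, 0.983 and 0.639 FPKM in NaCl shoots, so that NaCl root replicate 3 lay among the shoots, and it was not called (log2 fold change 1.35 ± 0.65, edgeR adjusted p = 0.0859). Without NaCl root replicate 3 it was called higher in roots (log2 fold change 1.82, edgeR adjusted p = 0.00852).

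Among the intracellular exchangers, NHX6, a Na+,K+/H+ exchanger of endosomes, had 15.4, 14.5 and 13.8 FPKM in NaCl roots, against 7.48, 7.45 and 6.49 FPKM in NaCl shoots (log2 fold change 1.03 ± 0.14, edgeR adjusted p = 2.92e-05), a call just past 2-fold that was lost without NaCl root replicate 1 (log2 fold change 0.99). NHX1, the best known vacuolar exchanger, had 28.1, 38.1 and 38.8 FPKM in NaCl roots, against 21.6, 22.5 and 33 FPKM in NaCl shoots, and NHX2, its close relative, had 6.21, 7.85 and 7.97 FPKM in NaCl roots, against 12.3, 10.5 and 10.6 FPKM in NaCl shoots. Neither was called (NHX1 log2 fold change 0.44 ± 0.21, edgeR adjusted p = 0.0804, NHX2 log2 fold change -0.60 ± 0.15, edgeR adjusted p = 0.00423). NHX5, an endosomal relative of NHX6, had 15.2, 17.2 and 17.5 FPKM in NaCl roots, against 17.4, 18.2 and 19.9 FPKM in NaCl shoots and was not called (log2 fold change -0.15 ± 0.12, edgeR adjusted p = 0.293). The vacuolar NHX3 and NHX4 were also uncalled, with log2 fold changes of -0.89 and 0.48, and NHX3 was called lower in roots without NaCl root replicate 3 (-1.02) or NaCl shoot replicate 1 (-1.01). NHX8, a plasma membrane relative of SOS1 described as a Li+/H+ exchanger, had 2.06, 1.95 and 1.65 FPKM in NaCl roots, against 3.97, 4.3 and 4.08 FPKM in NaCl shoots (log2 fold change -1.12 ± 0.18, edgeR adjusted p = 0.000154). Scaled by library size alone the list had 8 genes called higher in roots and 1 in shoots: NHX8 was lost, and SOS1, SOS2, CIPK8, HKT1, NHX1 and NHX4 were gained, while the calls of SOS3 and CBL10 stood.

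Potassium channels of the Shaker family divided the organs between them. Of 10 tested K+ channels, 4 were called higher in roots and 3 higher in shoots, and all 7 were Shaker channels. The called share was 70%, against 43.7% of all genes. AKT1, the inward channel of root K+ uptake, had 54.9, 50.8 and 69.7 FPKM in NaCl roots, against 5.7, 9.13 and 5.65 FPKM in NaCl shoots (log2 fold change 3.10 ± 0.20, edgeR adjusted p = 4.72e-08). KC1, a silent subunit that assembles with AKT1, had 43.6, 37.7 and 46.4 FPKM in NaCl roots, against 3.23, 3.28 and 5.21 FPKM in NaCl shoots (log2 fold change 3.44 ± 0.22, edgeR adjusted p = 3.49e-08). SKOR, the outward channel that releases K+ to the xylem, had 5.71, 8.11 and 5.33 FPKM in NaCl roots, against 0.221, 0.173 and 0.201 FPKM in NaCl shoots (log2 fold change 4.99 ± 0.31, edgeR adjusted p = 2.74e-08). These were the uptake and xylem release parts of the family, and in each the lowest root lay well above the highest shoot. GORK, the outward channel of guard cells and root hairs, had 9.54, 12.5 and 9.17 FPKM in NaCl roots, against 2.75, 2.51 and 2.85 FPKM in NaCl shoots (log2 fold change 1.94 ± 0.20, edgeR adjusted p = 2.6e-06).

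On the shoot side were the phloem and guard cell channels. AKT2, a weakly rectifying channel of the phloem, had 0.329, 0.448 and 0.214 FPKM in NaCl roots, against 11, 17.9 and 10.7 FPKM in NaCl shoots (log2 fold change -5.30 ± 0.46, edgeR adjusted p = 6.08e-07). KAT1, an inward channel of guard cells, had 0, 0.0304 and 0.0317 FPKM in NaCl roots, against 23.1, 47.8 and 21.2 FPKM in NaCl shoots. No NaCl root had more than 3 counts of KAT1, so its level was at least 353-fold lower in roots, taking the floor as 3 counts in each library. KAT2, a second guard cell channel, was at 0 in every NaCl root and had 3.66, 3.72 and 3.6 FPKM in NaCl shoots, at least 40.7-fold lower in roots on the same floor. TPK3 and TPK5, of the tonoplast channel family, were not called (log2 fold changes -0.60 and 0.83), TPK5 being gained towards roots without NaCl shoot replicate 3 (1.13) and with library size alone, and 5 further listed channels (AKT5, SPIK, TPK2, TPK4 and KCO3) did not reach the count minimum.

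Of the 19 K+ transporters tested, 3 were called higher in roots and 6 in shoots, 47.4% of the list against 43.7% of all genes, and the list median of -0.31 was smaller in size than the shift between the scalings. HAK5, the high-affinity transporter of K+-starved roots, had 4.11, 3.19 and 1.07 FPKM in NaCl roots, against 0, 0.0398 and 0 FPKM in NaCl shoots, at least 22.1-fold higher in roots against the floor of 3 counts per library. KUP6 and KUP10, members of the same KUP/HAK family, were also called. KUP6 had 15.1, 18.5 and 19.6 FPKM in NaCl roots, against 5.26, 5.91 and 4.31 FPKM in NaCl shoots (log2 fold change 1.78 ± 0.22, edgeR adjusted p = 1.71e-05), and the log2 fold change of KUP10 was 1.78.

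The shoot side was led by K+/H+ exchangers of the chloroplast. KEA1, of the inner envelope, had 3.45, 4 and 4.45 FPKM in NaCl roots, against 46, 42.9 and 50.2 FPKM in NaCl shoots (log2 fold change -3.55 ± 0.14, edgeR adjusted p = 8.64e-10). KEA3, of the thylakoid, had 2.53, 3.52 and 3.71 FPKM in NaCl roots, against 21, 16.9 and 16.4 FPKM in NaCl shoots (log2 fold change -2.48 ± 0.19, edgeR adjusted p = 2.1e-07). KEA2, the second envelope exchanger, was not called at 12.9, 13.9 and 15.3 FPKM in NaCl roots, against 15.4, 15.6 and 19.2 FPKM in NaCl shoots. KUP5, the transporter of the list with the highest mean level over both organs, had 23.2, 22.9 and 27.4 FPKM in NaCl roots, against 35.9, 30.5 and 36 FPKM in NaCl shoots and was not called (log2 fold change -0.48 ± 0.11, edgeR adjusted p = 0.00185). KUP2, close behind it, had 14.4, 16.2 and 13.4 FPKM in NaCl roots, against 36.2, 37.2 and 41.8 FPKM in NaCl shoots (log2 fold change -1.39 ± 0.11, edgeR adjusted p = 3.7e-07). A further gene annotated as a potassium transporter family protein (AT1G60160) had a log2 fold change of -2.46. With library size alone 5 transporters were called higher in roots and 3 in shoots: KUP2, KUP3 and KUP11 were lost and KUP7 and KUP8 gained.

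**Figure D2:**
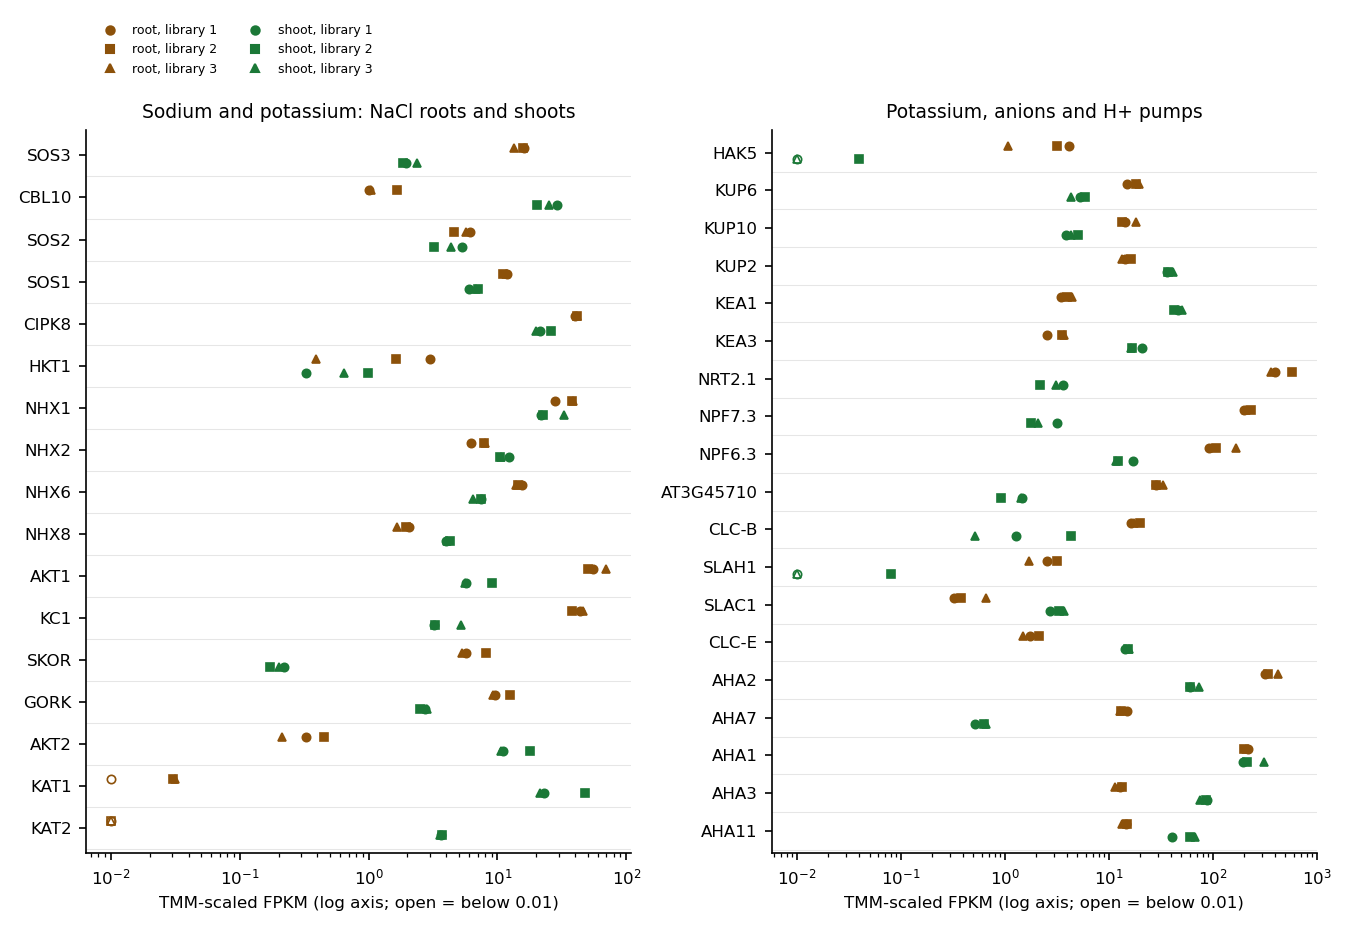
TMM-scaled FPKM (log axis) of ion transport genes in each NaCl library, brown for the 3 roots and green for the 3 shoots, with a marker shape per replicate; open markers at the left edge are values below 0.01. SOS3, AKT1, KC1 and SKOR had every root above every shoot, CBL10, AKT2, KAT1 and KAT2 every root below every shoot, and the HKT1 values of the organs overlapped.

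Among anion transporters more were called higher in roots than in shoots. Of 26 tested, 13 were called higher in roots and 4 in shoots, with a median log2 fold change of 1.18. Together these were 65.4% of the list, against 43.7% of all genes (21.7% higher in roots and 22% in shoots). The most abundant members carry nitrate. NRT2.1, the main high-affinity nitrate uptake transporter, had 397, 579.6 and 364 FPKM in NaCl roots, against 3.62, 2.18 and 3.08 FPKM in NaCl shoots (log2 fold change 7.24 ± 0.37, edgeR adjusted p = 5.77e-09). NPF7.3, which loads nitrate into the xylem, had 198, 232 and 208 FPKM in NaCl roots, against 3.17, 1.78 and 2.1 FPKM in NaCl shoots (log2 fold change 6.50 ± 0.39, edgeR adjusted p = 2.15e-08). NPF6.3, the nitrate transceptor, had 92, 108 and 168 FPKM in NaCl roots, against 17.2, 12.2 and 11.7 FPKM in NaCl shoots (log2 fold change 3.16 ± 0.27, edgeR adjusted p = 5.49e-07). For all of these the root values exceeded the highest shoot by several-fold, and NPF7.2, which takes nitrate back from the xylem, and NPF2.7, a nitrate efflux transporter, were called higher in roots with smaller log2 fold changes of 1.65 and 1.79.

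Related genes followed. A group of major facilitator superfamily genes with adjoining locus numbers was higher in roots throughout: AT3G45700 was at 0 in every NaCl shoot and had 4.59, 5.52 and 3.68 FPKM in NaCl roots, at least 25.3-fold higher, AT3G45710 had 28.5, 28.5 and 32.9 FPKM in NaCl roots, against 1.47, 0.917 and 1.42 FPKM in NaCl shoots, and the log2 fold change of AT3G45680 was 2.03. These genes are close relatives, and reads shared between them could have been split by the counting. CLC-B, a vacuolar nitrate/H+ exchanger, had 16.4, 20.2 and 17.4 FPKM in NaCl roots, against 1.29, 4.32 and 0.521 FPKM in NaCl shoots (log2 fold change 3.16 ± 0.65, edgeR adjusted p = 0.00103). SLAH1, a channel relative that promotes chloride transfer to the xylem, had 2.55, 3.2 and 1.73 FPKM in NaCl roots, against 0, 0.0797 and 0 FPKM in NaCl shoots, at least 10.2-fold higher in roots. SLAH3, its partner channel, was spread widely over the shoots, with 22.7, 24.8 and 21.9 FPKM in NaCl roots, against 23, 34.6 and 7.01 FPKM in NaCl shoots, and was not called (log2 fold change 0.10 ± 0.43, edgeR adjusted p = 0.841). ALMT1, the malate channel of root tips, had 1.79, 0.873 and 1.27 FPKM in NaCl roots, against 0.143, 0 and 0.071 FPKM in NaCl shoots.

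The members higher in shoots were guard cell and chloroplast anion channels and CLC-G. SLAC1, the guard cell anion channel of stomatal closure, had 0.322, 0.38 and 0.657 FPKM in NaCl roots, against 2.75, 3.29 and 3.71 FPKM in NaCl shoots (log2 fold change -2.84 ± 0.26, edgeR adjusted p = 1.11e-06). CLC-E, of the thylakoid, had 1.74, 2.13 and 1.51 FPKM in NaCl roots, against 14.3, 15.3 and 15.8 FPKM in NaCl shoots (log2 fold change -3.08 ± 0.17, edgeR adjusted p = 8.58e-09). ALMT6, a guard cell tonoplast channel, was at 0 in every NaCl root and had 0.755, 0.691 and 0.734 FPKM in NaCl shoots. CLC-G had a log2 fold change of -1.50 and was lost with library size as the only scaling, which gave 15 anion genes higher in roots, CLC-C and ALMT9 added, and 3 in shoots. The chloride cotransporter CCC1 and the vacuolar nitrate exchanger CLC-A were not called, with 15.6, 15.4 and 15.3 FPKM of CCC1 in NaCl roots, against 12.9, 12.6 and 13.1 FPKM in NaCl shoots, and 39.3, 41.3 and 47.1 FPKM of CLC-A in NaCl roots, against 40.2, 25.4 and 43.9 FPKM in NaCl shoots.

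The H+ pumps that energize this transport differed between organs only at the plasma membrane among the genes called. Of 25 tested pump genes, 3 were called higher in roots and 3 in shoots (median log2 fold change -0.18), and all 6 were P-type H+-ATPases of the AHA family. Calls were rarer here than over all genes, at 24% of the list against 43.7%. AHA2, the main pump of roots, had 321, 342 and 425 FPKM in NaCl roots, against 60.3, 60.6 and 73.8 FPKM in NaCl shoots (log2 fold change 2.48 ± 0.18, edgeR adjusted p = 1.28e-07). AHA7 had 14.9, 13 and 12.7 FPKM in NaCl roots, against 0.52, 0.638 and 0.663 FPKM in NaCl shoots (log2 fold change 4.47 ± 0.18, edgeR adjusted p = 7.37e-10), and AHA4 a log2 fold change of 2.35. AHA3, known from phloem companion cells, had 12.8, 13.5 and 11.6 FPKM in NaCl roots, against 87.3, 85.3 and 75.7 FPKM in NaCl shoots (log2 fold change -2.71 ± 0.12, edgeR adjusted p = 1.68e-09). AHA11 had 14.8, 14.9 and 13.5 FPKM in NaCl roots, against 40.5, 59.9 and 67.7 FPKM in NaCl shoots (log2 fold change -1.96 ± 0.17, edgeR adjusted p = 6.19e-07), and AHA5 a log2 fold change of -1.40. AHA1, the other abundant isoform, had 218, 202 and 210.3 FPKM in NaCl roots, against 197, 216 and 313 FPKM in NaCl shoots and was not called (log2 fold change -0.20 ± 0.19, edgeR adjusted p = 0.362).

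The vacuolar pumps lay closer together in the organs. AVP1, the vacuolar H+-pyrophosphatase, had 118, 148 and 149.7 FPKM in NaCl roots, against 251, 170.3 and 246 FPKM in NaCl shoots (log2 fold change -0.68 ± 0.18, edgeR adjusted p = 0.00488), with no overlap but below 2-fold. VHA-A, the catalytic subunit of the vacuolar H+-ATPase, had 190.4, 192 and 209.5 FPKM in NaCl roots, against 226, 220.2 and 238 FPKM in NaCl shoots (log2 fold change -0.21 ± 0.12, edgeR adjusted p = 0.152). VHA-E1, a stalk subunit, had 271, 284 and 284 FPKM in NaCl roots, against 220.4, 225 and 199 FPKM in NaCl shoots (log2 fold change 0.38 ± 0.11, edgeR adjusted p = 0.0116). None of the vacuolar ATPase subunits was called, with log2 fold changes from -0.54 (VHA-c4) to 0.45 (VHA-c3). With library size alone VHA-a1, VHA-E1, VHA-c2 and VHA-c3 were called higher in roots and AHA5 was lost, 7 higher in roots and 2 in shoots, and AHA1 and AVP1 changed the sign of an uncalled difference.

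The CBL Ca2+ sensors and the CIPK kinases they activate were called higher in roots in 13 cases and higher in shoots in 3 of 29 tested (median log2 fold change 0.67). Together these were 55.2% of the list, against 43.7% of all genes (21.7% higher in roots and 22% in shoots). The median was smaller than the shift of 0.71 between the scalings. CIPK23, which activates AKT1 and HAK5 and phosphorylates NPF6.3, had 68.4, 55.6 and 58 FPKM in NaCl roots, against 10.8, 11 and 14.3 FPKM in NaCl shoots (log2 fold change 2.33 ± 0.15, edgeR adjusted p = 4.63e-08). CBL9, a sensor that recruits CIPK23 to the plasma membrane, had 28.3, 29.7 and 34.2 FPKM in NaCl roots, against 7.38, 11.4 and 10.2 FPKM in NaCl shoots (log2 fold change 1.67 ± 0.18, edgeR adjusted p = 4.24e-06). CBL1, the sensor that shares this task with CBL9, had 9.41, 8.69 and 8.55 FPKM in NaCl roots, against 20.8, 35.8 and 14.4 FPKM in NaCl shoots (log2 fold change -1.41 ± 0.34, edgeR adjusted p = 0.00313). The pair thus differed in opposite directions, but the call of CBL1 was lost without NaCl shoot replicate 2 (log2 fold change -0.94) and with library size alone. CBL6 had 6.79, 7.6 and 7.16 FPKM in NaCl roots, against 0.247, 0.12 and 0.118 FPKM in NaCl shoots, at least 19.7-fold higher in roots.

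Among the kinases, the largest differences towards roots were in CIPK19 (2.17, 3.23 and 2.75 FPKM in NaCl roots, against 0, 0.319 and 0.071 FPKM in NaCl shoots) and CIPK16 (9.3, 11 and 7.89 FPKM in NaCl roots, against 0.599, 0.372 and 0.746 FPKM in NaCl shoots, log2 fold change 4.00 ± 0.40, edgeR adjusted p = 2.46e-06). The other direction was rarer. CIPK9, known for a part in K+ homeostasis, was lower in roots and had 7.77, 8.32 and 8.29 FPKM in NaCl roots, against 82, 114 and 66.6 FPKM in NaCl shoots (log2 fold change -3.43 ± 0.25, edgeR adjusted p = 1.3e-07). CIPK20 was close to absent in roots, with 0.0459, 0.121 and 0 FPKM in NaCl roots, against 10.5, 19.5 and 1.31 FPKM in NaCl shoots, at least 81.4-fold lower in roots. The most abundant kinases were CIPK6, which did not differ detectably (104, 104 and 115 FPKM in NaCl roots, against 63.9, 171 and 87.8 FPKM in NaCl shoots, log2 fold change 0.00 ± 0.29, edgeR adjusted p = 0.998), CIPK14, with a log2 fold change of 2.00, and CIPK7, which was higher in roots (98.6, 125 and 69.5 FPKM in NaCl roots, against 25.6, 32.6 and 23.1 FPKM in NaCl shoots, log2 fold change 1.85 ± 0.27, edgeR adjusted p = 7.67e-05). The calls of CIPK5, CIPK17 and CIPK22 were lost without at least 1 library (CIPK5 without NaCl root replicate 1 or 2 or NaCl shoot replicate 1 or 3, log2 fold changes 0.86 to 0.99; CIPK17 without NaCl root replicate 2 or NaCl shoot replicate 2 or 3, 1.19 to 1.45; CIPK22 without NaCl root replicate 2, 1.60). CIPK11, uncalled with all libraries, was called higher in roots without NaCl shoot replicate 2 (1.34). With library size alone 18 members were called higher in roots and 2 in shoots: CIPK3, CIPK10, CIPK11, CIPK13 and CIPK15 were gained and CBL1 was lost.

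Aquaporins also divided between the organs. Of 30 tested, 11 were called higher in roots and 8 in shoots, with a median log2 fold change of 0.49. The called share was 63.3%, against 43.7% of all genes. The median was smaller than the shift of 0.71 between the scalings. Members of the tonoplast (TIP) and NIP subfamilies led the root side. TIP2;3 had 34.9, 68.7 and 58.3 FPKM in NaCl roots, against 0, 0.106 and 0.0947 FPKM in NaCl shoots, at least 168-fold higher in roots. TIP4;1 had 28.7, 54.3 and 55.4 FPKM in NaCl roots, against 0.69, 0.305 and 0.888 FPKM in NaCl shoots (log2 fold change 6.16 ± 0.37, edgeR adjusted p = 2.13e-08). NIP1;1, which also passes arsenite, had 49.6, 56.6 and 65.5 FPKM in NaCl roots, against 1.59, 1.2 and 0.793 FPKM in NaCl shoots (log2 fold change 5.59 ± 0.20, edgeR adjusted p = 3.11e-10). The shoot levels of these genes were low in every library. NIP5;1, the boric acid channel of root uptake, had 20.6, 23.5 and 25.7 FPKM in NaCl roots, against 2.12, 1.51 and 1.42 FPKM in NaCl shoots (log2 fold change 3.78 ± 0.26, edgeR adjusted p = 6.79e-08), and NIP3;1 and NIP1;2 had log2 fold changes of 5.01 and 1.61.

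The plasma membrane (PIP) aquaporins were abundant in both organs. PIP2;2 had 264, 433 and 329 FPKM in NaCl roots, against 80.8, 103 and 118 FPKM in NaCl shoots (log2 fold change 1.76 ± 0.25, edgeR adjusted p = 4.7e-05), though it is nearly identical in sequence to PIP2;3, and reads could have been split between them. PIP2;4 had 24.4, 31.4 and 34.4 FPKM in NaCl roots, against 2.13, 2.14 and 2.54 FPKM in NaCl shoots (log2 fold change 3.71 ± 0.24, edgeR adjusted p = 4.2e-08). PIP2;1, among the 3 most abundant members, had 286, 484 and 288 FPKM in NaCl roots, against 500, 601 and 459 FPKM in NaCl shoots, with replicate 2 highest in both organs, and was not called (log2 fold change -0.56 ± 0.29, edgeR adjusted p = 0.104). PIP1;1 lay at 166, 315 and 209 FPKM in NaCl roots, against 147, 137 and 119.5 FPKM in NaCl shoots, below 2-fold.

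Towards shoots the largest difference was that of PIP2;6. It had 4.75, 7.61 and 6.9 FPKM in NaCl roots, against 363, 524 and 323 FPKM in NaCl shoots (log2 fold change -5.97 ± 0.35, edgeR adjusted p = 1.84e-08). TIP2;1, a tonoplast channel that also passes ammonia, had 22.9, 35 and 28.1 FPKM in NaCl roots, against 640, 352 and 717 FPKM in NaCl shoots (log2 fold change -4.31 ± 0.31, edgeR adjusted p = 1.32e-07). TIP1;2 had 180.1, 299.6 and 229 FPKM in NaCl roots, against 848, 669 and 856 FPKM in NaCl shoots (log2 fold change -1.74 ± 0.25, edgeR adjusted p = 6.49e-05), whereas its relative TIP1;1 pointed the other way at 212, 363 and 312 FPKM in NaCl roots, against 119, 172 and 219 FPKM in NaCl shoots, with overlap, and was called only without NaCl shoot replicate 3 (log2 fold change 1.07). PIP2;7, another of the most abundant, had 263, 331 and 322 FPKM in NaCl roots, against 592, 427 and 742 FPKM in NaCl shoots (log2 fold change -0.94 ± 0.18, edgeR adjusted p = 0.000616) and was called lower in roots only without NaCl root replicate 2 (a fold change just past 2) or without NaCl shoot replicate 2 (-1.08). The seed aquaporin TIP3;1 was rare, at 0, 0.167 and 0.475 FPKM in NaCl roots, against 1.97, 0.598 and 3.35 FPKM in NaCl shoots, and lost its call without NaCl shoot replicate 3 (-2.51). PIP2;8 lost its call without NaCl root replicate 1 (-0.91) or NaCl shoot replicate 3 (-0.85), and NIP6;1 without any of NaCl root replicates 1 and 3 and NaCl shoot replicates 1 and 2 (-1.25 to -0.77). With library size alone 15 aquaporins were called higher in roots and 4 in shoots, with PIP1;4, PIP1;5, PIP2;8 and NIP6;1 lost and PIP1;1, PIP2;3, TIP1;1 and NIP2;1 gained.

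The apoplastic barrier genes had the largest median organ difference among the lists that are not organ markers. Of 25 tested genes of the Casparian strip and suberin, 23 were called higher in roots and 1 higher in shoots, 96% of the list against 43.7% of all genes. The median log2 fold change was 4.92, or 4.65 with the 5 genes at the floor in shoots set to their bounds. CASP1, a membrane protein that marks the site of the Casparian strip, had 55.9, 60.3 and 69.5 FPKM in NaCl roots, against 0.69, 0.412 and 1.23 FPKM in NaCl shoots (log2 fold change 6.27 ± 0.32, edgeR adjusted p = 5.45e-09). PER64, the peroxidase of strip lignification, had 51.9, 54.1 and 56.3 FPKM in NaCl roots, against 0.182, 0.186 and 0.592 FPKM in NaCl shoots (log2 fold change 7.31 ± 0.29, edgeR adjusted p = 6.61e-10). ESB1, a dirigent-like protein of the strip, was abundant, with 65, 74.2 and 79.1 FPKM in NaCl roots, against 4.06, 4.74 and 4.51 FPKM in NaCl shoots (log2 fold change 4.03 ± 0.18, edgeR adjusted p = 1.89e-09). Their regulator MYB36 and the receptor GSO1, which surveys the integrity of the strip, had log2 fold changes of 5.69 and 2.37.

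Among the suberin enzymes in roots, CYP86A1 was at levels similar to those of CASP1, PER64 and ESB1, whereas GPAT5 was lower. CYP86A1, the fatty acid hydroxylase of root suberin, had 74.4, 79.3 and 69.2 FPKM in NaCl roots, against 3.23, 2.84 and 1.85 FPKM in NaCl shoots (log2 fold change 4.82 ± 0.31, edgeR adjusted p = 3.67e-08). GPAT5, which attaches suberin acids to glycerol, had 11.8, 13.5 and 11.9 FPKM in NaCl roots, against 0.351, 0.478 and 0.26 FPKM in NaCl shoots (log2 fold change 5.08 ± 0.40, edgeR adjusted p = 2.65e-07). ASFT, which adds ferulate, and the exporters ABCG2, ABCG6 and ABCG20 had log2 fold changes of 4.63, 3.08, 4.77 and 2.05. The regulator MYB39 was at 0 in every NaCl shoot and had 4.52, 1.37 and 1.4 FPKM in NaCl roots, at least 10-fold higher. The exceptions were FAR1 and KCS20. FAR1, a fatty acyl reductase that makes the alcohols of suberin, had 63, 48.5 and 39.3 FPKM in NaCl roots, against 18.8, 161 and 17 FPKM in NaCl shoots, with 1 shoot library far above the others, and was not called (log2 fold change -0.39 ± 0.66, edgeR adjusted p = 0.623). Without that library, NaCl shoot replicate 2, it was called higher in roots (log2 fold change 1.53, edgeR adjusted p = 9.05e-05), as its relatives FAR4 (5.38) and FAR5 (4.65) were with all libraries. KCS20, which elongates fatty acids for several lipids, had 48.7, 50.2 and 50.3 FPKM in NaCl roots, against 107, 93.6 and 98.6 FPKM in NaCl shoots (edgeR adjusted p = 2.54e-05), a call at the 2-fold limit that was lost without any of 6 libraries (NaCl root replicate 1, NaCl shoot replicates 1 and 3, and each control shoot, log2 fold changes -0.99 to -0.90) and with library size alone.

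Cutin and wax genes showed the reverse. Of 19 tested, 13 were called higher in shoots and 2 in roots, with a median log2 fold change of -3.27, and the same 13 shoot calls stood under library-size scaling. The called share was 78.9%, against 43.7% of all genes. KCS6, which elongates the fatty acids of wax, had 3.78, 6.26 and 4.27 FPKM in NaCl roots, against 182, 236 and 231 FPKM in NaCl shoots (log2 fold change -5.50 ± 0.28, edgeR adjusted p = 5.22e-09). CER1, of alkane synthesis, had 3.43, 6.1 and 4.08 FPKM in NaCl roots, against 51.7, 59.3 and 44.8 FPKM in NaCl shoots (log2 fold change -3.52 ± 0.20, edgeR adjusted p = 1.28e-08), and CER2 a log2 fold change of -5.42. CYP86A2, a cutin hydroxylase, had 16.3, 22.6 and 16.9 FPKM in NaCl roots, against 109, 118 and 126 FPKM in NaCl shoots (log2 fold change -2.66 ± 0.18, edgeR adjusted p = 5.08e-08). CYP77A6, another cutin hydroxylase, had 0.0766, 0.114 and 0.0791 FPKM in NaCl roots, against 4.59, 3.35 and 2.08 FPKM in NaCl shoots (log2 fold change -5.13 ± 0.45, edgeR adjusted p = 7.52e-07). The exporters ABCG11, ABCG12 and ABCG32 and the wax regulator MYB96 had log2 fold changes of -3.76, -4.09, -4.31 and -4.50. The pair called higher in roots were CER4, which makes primary alcohols (6.79, 5.55 and 5.92 FPKM in NaCl roots, against 0.208, 0.266 and 0.178 FPKM in NaCl shoots, log2 fold change 4.78 ± 0.30, edgeR adjusted p = 3.75e-08), and GPAT6 (19.9, 17.9 and 17.4 FPKM in NaCl roots, against 8.08, 6.11 and 4.81 FPKM in NaCl shoots, log2 fold change 1.54 ± 0.19, edgeR adjusted p = 1.55e-05). KCR1, the ketoacyl reductase shared by all these pathways, had 64, 73.1 and 68.6 FPKM in NaCl roots, against 28, 39.2 and 36.7 FPKM in NaCl shoots, close below 2-fold (log2 fold change 0.98 ± 0.15, edgeR adjusted p = 7.46e-05), and was called higher in roots with library size alone and without NaCl root replicate 1, NaCl shoot replicate 2 or 3, or any control shoot (1.03 to 1.12).

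**Figure D3:**
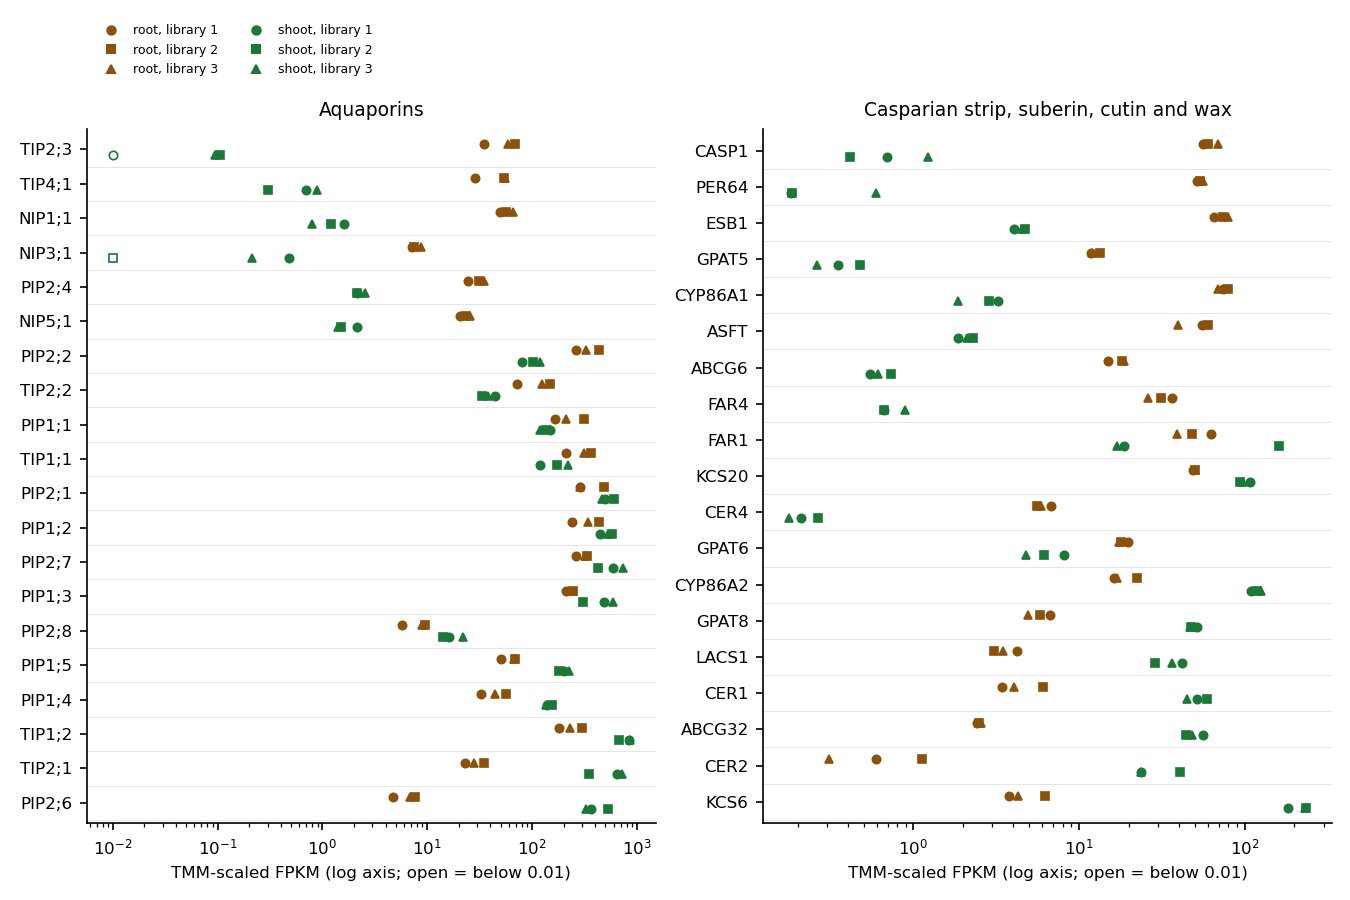
TMM-scaled FPKM (log axis) of aquaporins (left) and of Casparian strip, suberin, cutin and wax genes (right) in each NaCl library, brown for roots and green for shoots, with a marker shape per replicate; open markers are values below 0.01. CASP1 was at 55.9 to 69.6 in roots and 0.412 to 1.23 in shoots, KCS6 at 3.78 to 6.26 in roots and 182 to 236 in shoots, and NaCl shoot replicate 2 stands apart for FAR1 at 161.

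Of 13 tested genes of ABA metabolism, 2 were called higher in roots and 6 in shoots, 61.5% of the list against 43.7% of all genes, and the median log2 fold change was 0.26. NCED3, the enzyme that sets the pace of ABA synthesis under stress, had 3.18, 5.75 and 8.22 FPKM in NaCl roots, against 36.4, 119.6 and 43.2 FPKM in NaCl shoots (log2 fold change -3.54 ± 0.57, edgeR adjusted p = 0.000152). ABA1, the zeaxanthin epoxidase upstream of it, had 23.3, 32.9 and 15.6 FPKM in NaCl roots, against 219, 206 and 62.8 FPKM in NaCl shoots (log2 fold change -2.76 ± 0.50, edgeR adjusted p = 0.00037). BGLU18, which frees ABA from its glucose ester, had 1.56, 1.18 and 0.641 FPKM in NaCl roots, against 229, 197 and 371 FPKM in NaCl shoots (log2 fold change -7.87 ± 0.49, edgeR adjusted p = 3e-08). The synthesis and release genes named so far were thus all called lower in roots. Of the last steps, ABA3, the molybdenum cofactor enzyme, had 9.2, 8.81 and 9.05 FPKM in NaCl roots, against 4.37, 5.09 and 4.29 FPKM in NaCl shoots, close below 2-fold (log2 fold change 0.98 ± 0.12, edgeR adjusted p = 1.36e-05), and was called higher in roots without NaCl shoot replicate 2 or any control shoot (log2 fold change 1.02 in the last cases), while AAO3, the aldehyde oxidase, overlapped. NCED9 was rare, at 0.467, 0.721 and 0.451 FPKM in NaCl roots, against 0.052, 0.292 and 0 FPKM in NaCl shoots, and its call towards roots was lost without NaCl root replicate 2 (log2 fold change 1.98) or NaCl shoot replicate 1 (1.99).

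The ABA 8'-hydroxylases, which break ABA down, split. CYP707A1 had 17, 21.4 and 20.8 FPKM in NaCl roots, against 7.17, 6.62 and 5.29 FPKM in NaCl shoots (log2 fold change 1.64 ± 0.19, edgeR adjusted p = 7.78e-06). CYP707A3 had 12.6, 8.81 and 4.29 FPKM in NaCl roots, against 81.2, 14.5 and 30.4 FPKM in NaCl shoots, with a wide spread in both organs (log2 fold change -2.29 ± 0.57, edgeR adjusted p = 0.00359). CYP707A4 had 0.0383, 0 and 0.0396 FPKM in NaCl roots, against 1.98, 2.67 and 1.28 FPKM in NaCl shoots, at least 16.6-fold lower in roots, and CYP707A2 was rare in both and lost its call towards shoots without NaCl shoot replicate 2 (log2 fold change -0.59) or NaCl root replicate 1 (-1.58). Without NaCl shoot replicate 2 the list counted 4 genes higher in roots and 5 in shoots, and with library size alone 6 and 5, where ABA2, ABA3, ABCG25 and ABCG40 were gained and CYP707A2 was lost.

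ABA receptors and signalling genes differed little. Of 26 tested, 3 were called higher in roots and 2 in shoots, 19.2% of the list against 43.7% of all genes, and 3 and 1 without NaCl shoot replicate 2. The abundant receptor PYR1 had 82.5, 70 and 78.6 FPKM in NaCl roots, against 56, 29.9 and 47.7 FPKM in NaCl shoots, below 2-fold (log2 fold change 0.79 ± 0.20, edgeR adjusted p = 0.00453) except without NaCl shoot replicate 1, when it was called (log2 fold change 1.04). PYL7, another receptor, had 4.96, 8.03 and 7.09 FPKM in NaCl roots, against 23.9, 49.3 and 29.8 FPKM in NaCl shoots (log2 fold change -2.36 ± 0.28, edgeR adjusted p = 1.05e-05). The kinase SNRK2.2 had 64.8, 61.4 and 65.7 FPKM in NaCl roots, against 125, 89.7 and 123 FPKM in NaCl shoots, below 2-fold (log2 fold change -0.82 ± 0.15, edgeR adjusted p = 0.000439). The protein phosphatases that act as co-receptors varied more among the shoots than among the roots. ABI1 had 38.8, 64.7 and 63 FPKM in NaCl roots, against 38.1, 179 and 57.5 FPKM in NaCl shoots (log2 fold change -0.72 ± 0.45, edgeR adjusted p = 0.172), and HAI1 had 18.7, 50 and 44.6 FPKM in NaCl roots, against 8.88, 92.2 and 25 FPKM in NaCl shoots (log2 fold change -0.15 ± 0.68, edgeR adjusted p = 0.852), with NaCl shoot replicate 2 highest for both, and ABI1 was called lower in roots only without NaCl shoot replicate 1 (-1.04). PP2CA, another of them, had 23.1, 49.9 and 53.4 FPKM in NaCl roots, against 42, 221 and 106 FPKM in NaCl shoots (log2 fold change -1.54 ± 0.50, edgeR adjusted p = 0.0159), and its call towards shoots was lost without NaCl shoot replicate 2 (log2 fold change -0.77), without NaCl root replicate 1 (-1.25), with library size alone and with only the 6 NaCl libraries (edgeR adjusted p = 0.0541).

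The phosphatases HAI3 and AHG1 and the receptor PYL6 were called higher in roots at low levels. AHG1, known from seeds, had 0.613, 0.554 and 0.902 FPKM in NaCl roots, against 0, 0.0797 and 0.071 FPKM in NaCl shoots, at least 3.15-fold higher in roots. PYL6 had 1.64, 0.615 and 0.325 FPKM in NaCl roots, against 0.325, 0 and 0 FPKM in NaCl shoots, so that the organs met at 1 value, and its call was lost without NaCl root replicate 1 (log2 fold change 2.07) and with only the 6 NaCl libraries (2.92, edgeR adjusted p = 0.055). The kinase OST1 and the transcription factors ABF2, ABF3 and ABF4 were not called, with log2 fold changes of -0.70, 0.14, -0.12 and -0.28. Library-size scaling called 7 of the list higher in roots and 1 in shoots, adding PYR1, PYL1, PYL2 and ABF1.

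The salt and dehydration response genes were mostly higher in shoots. Of 30 tested, 16 were called higher in shoots and 4 in roots, with a median log2 fold change of -1.29. Together these were 66.7% of the list, against 43.7% of all genes. Without NaCl shoot replicate 2 the counts were 16 and 6 and the median was -1.06. COR15A and COR15B, chloroplast proteins that protect membranes, were low in roots. COR15A had 0.904, 0.972 and 0.19 FPKM in NaCl roots, against 449, 935 and 836 FPKM in NaCl shoots (log2 fold change -10.03 ± 0.63, edgeR adjusted p = 3.46e-08), and COR15B had 0, 0.106 and 0 FPKM in NaCl roots, against 371, 581 and 609.5 FPKM in NaCl shoots, at least 1639-fold lower in roots, although these neighbours are close copies whose reads could have been split. RD20, a caleosin of lipid droplets, had 0.0689, 0.205 and 0 FPKM in NaCl roots, against 18.2, 299 and 37.2 FPKM in NaCl shoots, at least 558-fold lower in roots. RD22 had 12.3, 18.3 and 11 FPKM in NaCl roots, against 450.1, 601 and 316 FPKM in NaCl shoots (log2 fold change -5.04 ± 0.30, edgeR adjusted p = 2.35e-08). RD29B, an ABA-responsive marker, had 1.46, 3.2 and 2.79 FPKM in NaCl roots, against 13, 55.7 and 33.1 FPKM in NaCl shoots (log2 fold change -3.77 ± 0.61, edgeR adjusted p = 0.000166), and the dehydrin RAB18 had 7.25, 14.1 and 8.78 FPKM in NaCl roots, against 26.2, 51.1 and 37.7 FPKM in NaCl shoots (log2 fold change -1.93 ± 0.44, edgeR adjusted p = 0.00203).

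Several of these differences depended on the library. RD29A, the most used salt marker, had 68.6, 138 and 93.4 FPKM in NaCl roots, against 128, 649 and 188 FPKM in NaCl shoots (log2 fold change -1.69 ± 0.63, edgeR adjusted p = 0.0333). NaCl shoot replicate 1 lay below the highest root, and the call was lost without NaCl shoot replicate 2 (log2 fold change -0.62, edgeR adjusted p = 0.309), without NaCl root replicate 1 (-1.48), without NaCl root replicate 3 (-1.64) and with library size alone. ERD10, the dehydrin with the highest mean level in shoots, had 512, 794 and 543 FPKM in NaCl roots, against 508, 1975 and 419 FPKM in NaCl shoots and was not called (log2 fold change -0.65 ± 0.53, edgeR adjusted p = 0.295). That rank rested on NaCl shoot replicate 2, and in NaCl shoot replicates 1 and 3 ERD10 lay below COR47. COR47, the most abundant dehydrin of the roots, had 1018, 1430 and 1258 FPKM in NaCl roots, against 695, 1276 and 769.8 FPKM in NaCl shoots and was not called (log2 fold change 0.43 ± 0.31, edgeR adjusted p = 0.231). MBF1C, a transcriptional coactivator of stress responses, had 29, 38.2 and 35.8 FPKM in NaCl roots, against 12.1, 35.9 and 16.3 FPKM in NaCl shoots (log2 fold change 0.68 ± 0.35, edgeR adjusted p = 0.107) and was called higher in roots without NaCl shoot replicate 2 (1.31). TSPO lost its call towards shoots without NaCl root replicate 1 or 2 or NaCl shoot replicate 3 (-2.08 to -1.72), and RD29A, ERD1, ERD4 and TSPO were lost with library size alone, which gave 8 members higher in roots, COR47, ERD14, LEA4-5 and MBF1C added, and 12 in shoots.

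The 4 called higher in roots were a dehydrin, a small cold and ABA responsive protein and a pair of transcription factors. LTI30, the dehydrin, had 533, 802 and 732 FPKM in NaCl roots, against 45.3, 87.9 and 44.6 FPKM in NaCl shoots (log2 fold change 3.54 ± 0.30, edgeR adjusted p = 5.1e-07). KIN1 had 467, 734 and 386 FPKM in NaCl roots, against 59.8, 119.6 and 70.3 FPKM in NaCl shoots (log2 fold change 2.67 ± 0.37, edgeR adjusted p = 4.45e-05). Its tandem copy KIN2 differed the other way, with 240, 436 and 221 FPKM in NaCl roots, against 899, 1404 and 1521 FPKM in NaCl shoots (log2 fold change -2.09 ± 0.45, edgeR adjusted p = 0.00136), and because the copies are nearly identical their separate values are uncertain. HB7 had 128, 142 and 159.5 FPKM in NaCl roots, against 25.2, 108 and 48.1 FPKM in NaCl shoots (log2 fold change 1.25 ± 0.39, edgeR adjusted p = 0.0129) and fell below 2-fold without NaCl shoot replicate 1 (log2 fold change 0.93), and with only the 6 NaCl libraries it was not called (1.25, edgeR adjusted p = 0.0515). DREB2A, a regulator of dehydration responses, had 39.8, 58.2 and 77.6 FPKM in NaCl roots, against 27.6, 30.5 and 20.2 FPKM in NaCl shoots (log2 fold change 1.17 ± 0.30, edgeR adjusted p = 0.00456) and fell below 2-fold without NaCl root replicate 3 (0.91). The cold regulators CBF1, CBF2 and CBF3, also close copies, were lower in roots, with 0.145, 0.417 and 0.578 FPKM of CBF1 in NaCl roots, against 28.2, 26.9 and 15.2 FPKM in NaCl shoots (log2 fold change -5.89 ± 0.44, edgeR adjusted p = 1.7e-07).

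Of 22 tested genes of proline, galactinol and sugar transport, 4 were called higher in roots and 7 in shoots, 50% of the list against 43.7% of all genes, and 6 and 6 without NaCl shoot replicate 2. P5CS1, the stress-responsive enzyme of proline synthesis, had 42.3, 55 and 55.8 FPKM in NaCl roots, against 272, 390.3 and 288 FPKM in NaCl shoots (log2 fold change -2.64 ± 0.28, edgeR adjusted p = 4.16e-06). P5CS2, its housekeeping copy, overlapped at 62.4, 61.9 and 56 FPKM in NaCl roots, against 57.1, 67.5 and 63 FPKM in NaCl shoots (log2 fold change -0.06 ± 0.12, edgeR adjusted p = 0.699), and P5CR, the second step, was not called (log2 fold change 0.39 ± 0.13, edgeR adjusted p = 0.0164). PRODH1, which starts proline breakdown, had 60.5, 51.5 and 72.4 FPKM in NaCl roots, against 52.4, 17.4 and 86.5 FPKM in NaCl shoots, with replicate 2 lowest in both organs (log2 fold change 0.24 ± 0.43, edgeR adjusted p = 0.642). AT5G38710, annotated with proline dehydrogenase activity, had 10.7, 7.61 and 9.38 FPKM in NaCl roots, against 1.59, 1.73 and 0.414 FPKM in NaCl shoots (log2 fold change 2.91 ± 0.34, edgeR adjusted p = 9.82e-06). P5CDH, the second breakdown enzyme, stood at the 2-fold limit (log2 fold change 1.01 ± 0.12, edgeR adjusted p = 1.6e-05) and fell below it without NaCl root replicate 3 or NaCl shoot replicate 1 (log2 fold change 0.94 in both cases).

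The galactinol synthases went different ways. GOLS4 had 28.1, 37.1 and 44.3 FPKM in NaCl roots, against 0.599, 1.73 and 1.01 FPKM in NaCl shoots (log2 fold change 5.03 ± 0.41, edgeR adjusted p = 3.31e-07). GOLS2 had 10.3, 19.8 and 28.1 FPKM in NaCl roots, against 42.9, 156 and 47.1 FPKM in NaCl shoots (log2 fold change -2.08 ± 0.59, edgeR adjusted p = 0.00768), and lost its call without NaCl shoot replicate 2 (log2 fold change -1.17). GOLS1 had 45.4, 52.8 and 31.4 FPKM in NaCl roots, against 7.67, 38.4 and 3.35 FPKM in NaCl shoots, uncalled with all libraries and higher in roots without NaCl shoot replicate 2 (3.02), as was the raffinose synthase RS5 (2.01). Sugar transporters of the phloem were lower in roots: SWEET11 had 7.63, 6.18 and 5.92 FPKM in NaCl roots, against 107, 87.4 and 118 FPKM in NaCl shoots (log2 fold change -3.99 ± 0.17, edgeR adjusted p = 1.43e-09), SWEET12 a log2 fold change of -3.47 and the loader SUC2 of -2.01. The amino acid importer LHT1 had 57.5, 66.9 and 39.5 FPKM in NaCl roots, against 8.51, 12.7 and 7.26 FPKM in NaCl shoots (log2 fold change 2.53 ± 0.30, edgeR adjusted p = 1.08e-05), the proline transporter PROT3 a log2 fold change of -3.53, and MIPS1, of inositol synthesis, had 24.1, 25.4 and 23.6 FPKM in NaCl roots, against 133, 298 and 90.3 FPKM in NaCl shoots (log2 fold change -2.83 ± 0.38, edgeR adjusted p = 2.91e-05). Under library-size scaling 8 genes of this list were called higher in roots, P5CR, PROT1, GOLS1 and RS5 added, and 7 in shoots.

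**Figure D4:**
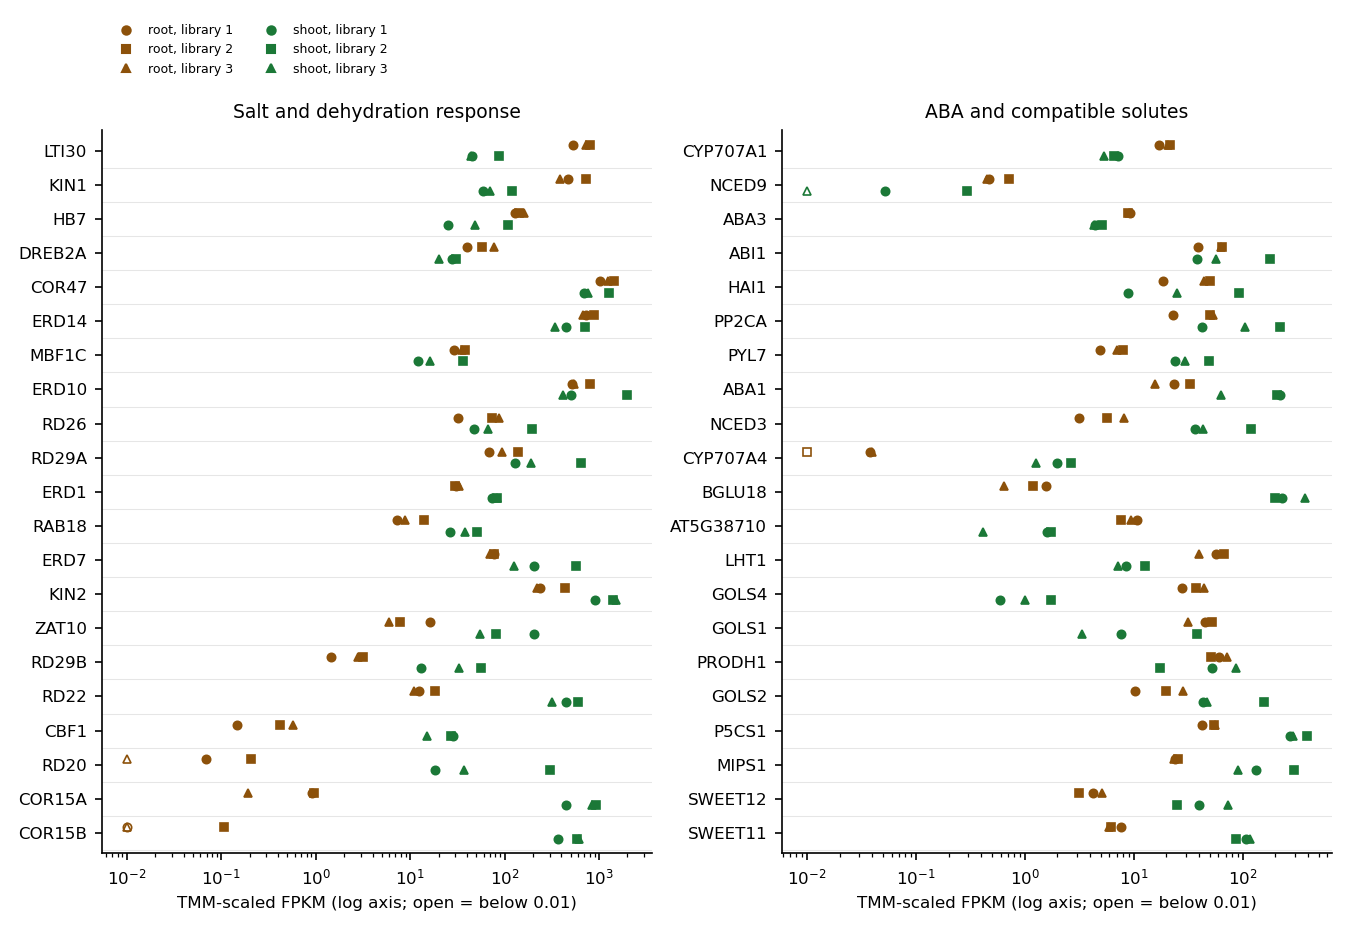
TMM-scaled FPKM (log axis) of salt and dehydration response genes (left) and of ABA and compatible solute genes (right) in each NaCl library, brown for roots and green for shoots, with a marker shape per replicate; open markers are values below 0.01. The green squares, NaCl shoot replicate 2, lie to the right of the other shoots for RD29A (649), ERD10 (1975), RD20 (299), NCED3 (120) and HAI1 (92.2).

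Enzymes that make or remove reactive oxygen were called in 21 of 28 cases, 11 higher in roots and 10 in shoots (median log2 fold change 0.61). The called share was 75%, against 43.7% of all genes. The median was smaller than the shift of 0.71 between the scalings. The shoot side held several chloroplast forms. TAPX, the thylakoid ascorbate peroxidase, had 1.96, 2 and 1.64 FPKM in NaCl roots, against 149, 159.7 and 150.2 FPKM in NaCl shoots (log2 fold change -6.35 ± 0.18, edgeR adjusted p = 9.91e-11). GPX1, a chloroplast peroxidase, had 14.7, 14.1 and 17.3 FPKM in NaCl roots, against 361, 289 and 288 FPKM in NaCl shoots (log2 fold change -4.35 ± 0.25, edgeR adjusted p = 1.51e-08), and the iron superoxide dismutases FSD2 and FSD3 and the chloroplast glutathione reductase GR2 had log2 fold changes of -2.75, -2.08 and -2.25. Not all chloroplast forms lay there, since the copper/zinc superoxide dismutase CSD2 was called higher in roots (log2 fold change 2.42) and the ascorbate peroxidase SAPX was not called (0.87). CAT3, the most abundant catalase, had 425, 329 and 331 FPKM in NaCl roots, against 2752, 2562 and 2368 FPKM in NaCl shoots (log2 fold change -2.83 ± 0.18, edgeR adjusted p = 4e-08). FSD1, also abundant, had 216, 263 and 258 FPKM in NaCl roots, against 665, 764 and 585 FPKM in NaCl shoots (log2 fold change -1.45 ± 0.20, edgeR adjusted p = 4.52e-05) and was lost, with CSD3 and RBOHD, when library size was the only scaling, which gave 15 higher in roots, APX1, SAPX, GPX3 and AOX1A added, and 7 in shoots.

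On the root side the NADPH oxidases led. RBOHC, which makes the superoxide of growing root hairs, had 19.1, 17.7 and 18.7 FPKM in NaCl roots, against 0.364, 0.252 and 0.189 FPKM in NaCl shoots (log2 fold change 6.11 ± 0.25, edgeR adjusted p = 1.05e-09). RBOHB had 10, 9.58 and 8.6 FPKM in NaCl roots, against 0.039, 0.133 and 0 FPKM in NaCl shoots, at least 74.7-fold higher in roots, and RBOHA at least 57.1-fold. RBOHF, which acts with RBOHD in stress signalling, had 17.5, 16.3 and 18 FPKM in NaCl roots, against 5.01, 6.2 and 6 FPKM in NaCl shoots (log2 fold change 1.59 ± 0.14, edgeR adjusted p = 9.52e-07), while RBOHD had 33, 23.7 and 19.5 FPKM in NaCl roots, against 78.7, 62.5 and 44 FPKM in NaCl shoots (log2 fold change -1.28 ± 0.32, edgeR adjusted p = 0.00343). The oxidases thus differed in both directions. Of the scavengers, the glutathione reductase GR1, the peroxidases GPX2 and GPX8 and the dehydroascorbate reductase DHAR2 were called higher in roots with log2 fold changes of 1.62, 1.58, 1.43 and 2.29. DHAR1, the abundant form, had 408, 427 and 352 FPKM in NaCl roots, against 290.5, 669 and 321 FPKM in NaCl shoots and was not called (log2 fold change -0.11 ± 0.27, edgeR adjusted p = 0.738), and the cytosolic superoxide dismutase CSD1 (1.05) fell below 2-fold without NaCl root replicate 1 (0.93).

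Over all genes, the most extreme fold changes among called genes with a mean of at least 500 counts and no overlap between organs were not those of transporters. AGP30, an arabinogalactan protein, had 99.7, 118 and 163 FPKM in NaCl roots, against 0, 0 and 0.0947 FPKM in NaCl shoots. AT4G12520, of the lipid-transfer and seed albumin family, had 107, 156 and 236 FPKM in NaCl roots, against 0, 0.173 and 0 FPKM in NaCl shoots. MRN1, the marneral synthase, had 25.4, 28.4 and 24.1 FPKM in NaCl roots, against 0, 0.0398 and 0 FPKM in NaCl shoots. AGP30, AT4G12520 and MRN1 were at least 396-fold, 330.1-fold and 205-fold higher in roots. AT5G54370, annotated as late embryogenesis abundant-like, had 95.1, 114 and 205 FPKM in NaCl roots, against 0, 0.359 and 0 FPKM in NaCl shoots. The last of the root set, the defensin-like gene AT1G34047, varied widely in roots, at 1130, 1270 and 143 FPKM in NaCl roots, against 0.963, 0.97 and 0.426 FPKM in NaCl shoots. Towards shoots the genes were the myrosinase TGG1, a defence enzyme of leaf myrosin cells, with 0.253, 0.531 and 0.111 FPKM in NaCl roots, against 3188, 3307 and 2754 FPKM in NaCl shoots, and AT1G66100, a thionin, CORI3, a cystine lyase, AT3G28220, a TRAF-like protein, and AT1G23130, of the polyketide cyclase and lipid transport family. These 4 had at most 3 counts in any NaCl root and were at least 1134-fold, 723-fold, 567-fold and 2994-fold lower in roots.

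Whether the organ differences were particular to salt was tested by the interaction of organ and NaCl. Among the 217 list genes called under NaCl, organ markers included, 196 were called in the same direction in the controls. Over all genes 3912 were called higher in roots and 4024 higher in shoots in both media, and 5 were called in opposite directions. The organ difference was called as differing with NaCl in 40 of 20965 genes (0.191%), 20 with a higher and 20 with a lower root-over-shoot ratio under NaCl. Genes outside the 40 were not called, which does not show that their organ difference was the same in both media. Before adjustment 3243 genes had p under 0.05. None of the 351 list genes was among the 40, 63 of them having an unadjusted p under 0.05. DESeq2 called 280 genes over all tested, 7 of them in the lists (NHX4, AHA7, TIP2;1, CYP86A2, CYP707A1, PROT2 and CSD2). With pseudocounts of 1 and 0.1, limma called 200 and 76 genes over all tested, and 2 and 1 of these were in the lists. By list, the counts higher in roots and in shoots in the controls were 23 and 0 for Casparian strip and suberin, 3 and 13 for cutin and wax, 14 and 4 for anion transport, 15 and 5 for aquaporins, 4 and 2 for sodium transport, and 4 and 11 for salt and dehydration response. Over all 20965 genes tested, 4594 were called higher in roots and 4484 higher in shoots in the controls. The count of 40 depended on single libraries: it was 1 without NaCl root replicate 1, NaCl root replicate 2, control root replicate 2, control root replicate 3 or control shoot replicate 1, 3 without control shoot replicate 2, 10 without NaCl root replicate 3, 22 without NaCl shoot replicate 1, 25 without control shoot replicate 3, 62 without NaCl shoot replicate 3 and 64 without NaCl shoot replicate 2.

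The 10 genes with the smallest adjusted p were not from the lists. TAA1, an enzyme of auxin synthesis, had 10.6, 11.2 and 9.58 FPKM in NaCl roots, 7.74, 5.46 and 6.34 FPKM in NaCl shoots, 6.24, 5.89 and 5.93 FPKM in control roots and 17, 16.2 and 17.6 FPKM in control shoots. Roots were thus above shoots with NaCl and below them without it (log2 ratio of fold changes 2.17 ± 0.19, edgeR adjusted p = 0.00241). MSRB6, a methionine sulfoxide reductase, had 0.72, 0.941 and 1.5 FPKM in NaCl roots, 74.3, 100 and 61.5 FPKM in NaCl shoots, 6.38, 7.27 and 6.92 FPKM in control roots and 74, 82.2 and 59.2 FPKM in control shoots (log2 ratio of fold changes -2.83 ± 0.34, edgeR adjusted p = 0.0221). EARLI1, a lipid-transfer type cell wall protein, had 117, 138 and 132 FPKM in NaCl roots, 5.5, 3.83 and 2.4 FPKM in NaCl shoots, 115, 163 and 115 FPKM in control roots and 16.9, 25.7 and 20.2 FPKM in control shoots (log2 ratio of fold changes 2.41 ± 0.34, edgeR adjusted p = 0.0372). In MSRB6 the roots, and in EARLI1 the shoots, were the organ whose levels did not overlap between media. XTH15, a cell wall xyloglucan enzyme, had 24.3, 19.9 and 16.9 FPKM in NaCl roots, 9.18, 15 and 9.87 FPKM in NaCl shoots, 17.2, 28.2 and 24.2 FPKM in control roots and 2.7, 2.34 and 2.4 FPKM in control shoots (log2 ratio of fold changes -2.37 ± 0.34, edgeR adjusted p = 0.0372). RALFL33, a signalling peptide, had 27.3, 25.9 and 29.5 FPKM in NaCl roots, 64.6, 54.4 and 63.9 FPKM in NaCl shoots, 43.5, 42.6 and 38.7 FPKM in control roots and 43.5, 33.6 and 38.3 FPKM in control shoots (log2 ratio of fold changes -1.26 ± 0.18, edgeR adjusted p = 0.0372). The log2 ratios of the others were -1.80 for ENODL18, -2.36 for AT1G12010 (an oxygenase), -2.28 for AT1G62510 (lipid-transfer type), 3.86 for AT3G54830 (an amino acid transporter) and 1.54 for AT4G39780 (an AP2-type DNA-binding protein).

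**Figure D5:**
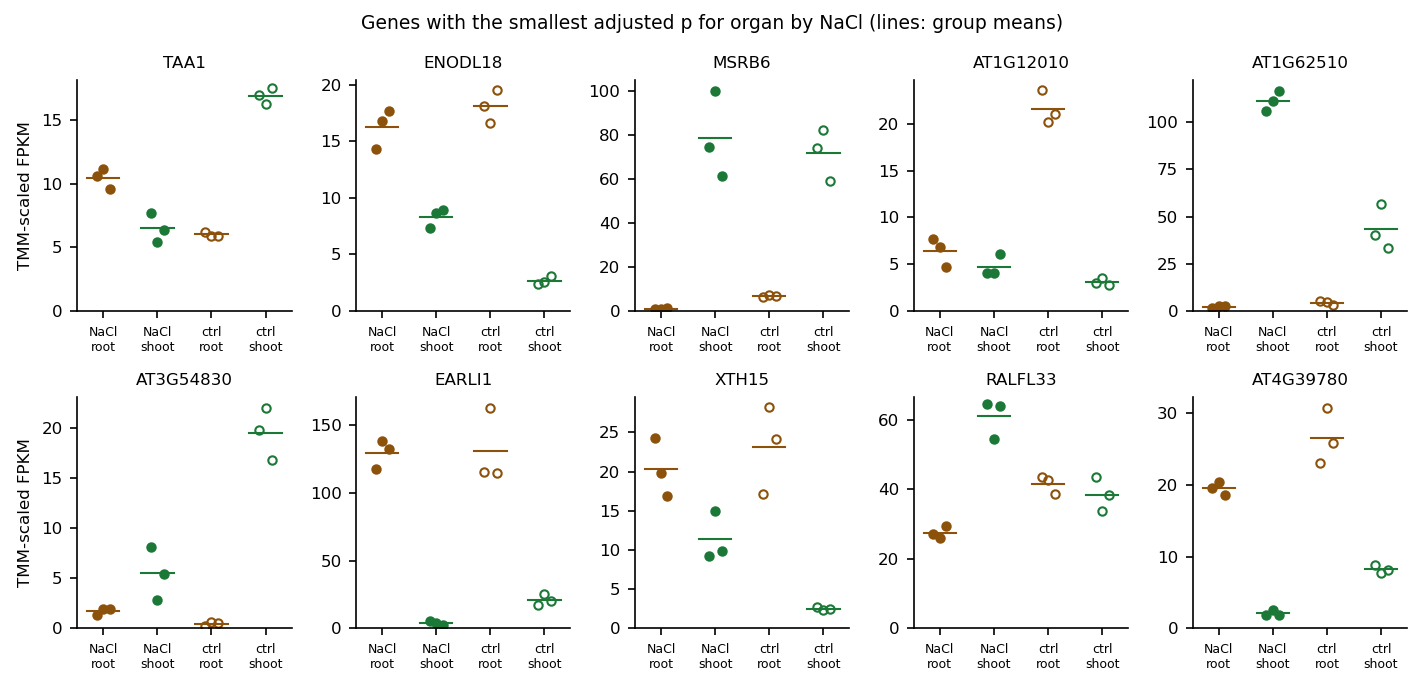
TMM-scaled FPKM (linear axes from 0) of the 10 genes with the smallest adjusted p for the interaction of organ and NaCl, filled points for NaCl and open points for control libraries, brown for roots and green for shoots, with group means as lines. TAA1 roots were at 9.58 to 11.2 with NaCl and shoots at 5.46 to 7.74, whereas in controls roots were at 5.89 to 6.24 and shoots at 16.2 to 17.6.

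The smallest adjusted p for the interaction among the list genes lay just above the threshold. AHA7 had a log2 ratio of fold changes of -1.42 (edgeR adjusted p = 0.0629), the root stem cell regulator WOX5 2.28 (0.0526), TIP2;1 -1.83 (0.0935), CYP86A2 -1.06 (0.0935) and RBOHF -0.89 (0.0945). TIP2;1 was called there without NaCl shoot replicate 2 (-2.05), WOX5 without NaCl shoot replicate 3 (2.53) and CYP707A2 without NaCl shoot replicate 2 (5.73). These genes were singled out after their values were seen. The median standard error was 0.29 for the interaction and 0.21 for the organ difference.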

How the data were processed

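Polyadenylated RNA from TRIzol extracts was sequenced as single-end 50-base reads on a BGISEQ-500. The reads were mapped to TAIR10 with HISAT and Bowtie2 and quantified per gene with RSEM (versions and strand setting not given in the sources used here), so genes overlapping on opposite strands cannot be told apart. The authors deposited, for each library, the RSEM expected count and the FPKM of each listed gene, and genes not listed were taken as 0. The deposited expected counts were rounded, and 12 diploid libraries (totals 11278640 to 11909554) were fitted together with edgeR 4.0.16 (R 4.3.3) by the quasi-likelihood test with TMM scaling, on the 20965 genes that reached 10 counts in 3 or more of them. NOISeq, the study's tool, was not used. A gene was called at an adjusted p under 0.05 and at least 2-fold. The standard error is |log2 fold change| over the square root of F. Levels are the deposited FPKM divided by the TMM factor, and lower bounds of a fold set TMM-scaled counts against a floor of 3 counts in each library scaled the same way.

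Of 25818 gene IDs, 24182 matched the TAIR10.1 table of RefSeq, which was used for names only. Members and gene lists were chosen with earlier results of these data known. Genes named were a fixed set (such as HKT1, SOS1 and RD29A), the 3 of highest mean level and the 3 most extreme called in each direction per list, the 5 most extreme in each direction over all genes with non-overlapping organs and a mean of at least 500 counts, and the 10 of smallest adjusted p for organ by NaCl. A few list members are not reported here. Other members are named for context and were chosen after their values were seen. Alternatives were library-size scaling, TMM without shoot markers and organelle genes, no count filter, a replicate block, the adjusted p alone, only the 6 NaCl libraries with and without the block, DESeq2 1.42.0, limma 3.58.1 on log2(FPKM + 1) and log2(FPKM + 0.1), and each library left out in turn. The test was checked on simulated counts. Replicate libraries differed by more than sampling noise (chi-square per degree of freedom 10.2 to 46.8 over the pairs within the 4 diploid groups), so none was a re-sequenced copy of another. The comparison cannot tell separate pools from repeat libraries of the same pool.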

Additional observations from a re-analysis of the deposited data

Results flagged for a closer look

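The organ difference was called as differing between NaCl and control plants, by the interaction term of edgeR, in 40 genes of 20965. Under NaCl 10 of them were called higher in roots, 16 higher in shoots and 14 in neither, and in controls 13, 17 and 10. For 18 of the 40 the call was the same in both media, and for 12 the sign of the root-over-shoot difference changed. The 10 genes with the smallest adjusted p had log2 ratios of fold changes, NaCl over control, of 2.17 for TAA1, -1.80 for ENODL18, -2.83 for MSRB6, -2.36 for AT1G12010, -2.28 for AT1G62510, 3.86 for AT3G54830, 2.41 for EARLI1, -2.37 for XTH15, -1.26 for RALFL33 and 1.54 for AT4G39780. TAA1 kept its call under all 20 alternatives, with log2 ratios of 2.09 to 2.35. The other 9 kept their sign but lost the call in 5 (MSRB6) to 10 (RALFL33) of the 20. For RALFL33 these included library-size scaling (-1.10, edgeR adjusted p = 0.0595), and all other losses were with a library left out.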

How the results depend on the processing

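The 4545 genes higher in roots became 8239 with library size as the only scaling, 7025 on the adjusted p alone, and 6933 and 8111 with limma on log2(FPKM + 1) and log2(FPKM + 0.1), and the 4610 higher in shoots became 2835 with limma on log2(FPKM + 1). Those limma fits placed 70.98% and 72.23% of calls in roots, with shifts of 0.68 and 0.72 against the TMM values. The organ by NaCl count of 40 became 26 without the count filter, 280 with DESeq2, and 200 and 76 with limma (pseudocounts 1 and 0.1). Leaving out 1 library gave 4471 to 4802 genes higher in roots, 4415 to 4600 higher in shoots and 1 to 64 for organ by NaCl.

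In the lists, root counts under library size, adjusted p alone, limma with 1 and limma with 0.1 were 8, 4, 6 and 8 for sodium transport, and 7, 6, 7 and 7 for proton pumps, 5 under each for potassium transporters, and 6, 5, 4 and 4 for ABA metabolism. For ABA signalling they were 7, 5 and 6 (without limma with 1), and for compatible solutes and for salt response 8, 9 and 9 and 8, 8 and 8 (without the adjusted p alone). Shoot counts were 1, 4, 1 and 1 for sodium transport, 3, 10, 3 and 3 for potassium transporters, 1, 6, 1 and 1 for ABA signalling (and 1 with only the 6 NaCl libraries), 4, 3 and 5 for aquaporins (without the adjusted p alone), and 2 for anion transport with either limma fit. On the adjusted p alone they were 6 for CBL and CIPK genes, 5 for potassium channels and 7 for proton pumps. The single Casparian strip and suberin gene higher in shoots was not called (0) under library size, no filter, DESeq2 or either limma fit. List genes called for organ by NaCl, 0 with edgeR, numbered 7 with DESeq2 and 2 (PYL6, WOX5) and 1 (WOX5) with limma. Leaving out 1 library gave ranges of 2 to 5 and 1 to 4 for ABA signalling in roots and shoots, 1 to 4 for ABA metabolism in roots, 1 to 3 for sodium transport in roots, 0 to 1 for suberin in shoots and 0 to 2 for list genes by organ and NaCl.

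Signs reversed only in uncalled genes. Under library size, limma with 1 and limma with 0.1 the log2 fold changes were 0.0179, 0.27 and 0.28 for ABI1, 0.50, 0.54 and 0.54 for AHA1, 0.0231, 0.0471 and 0.0475 for AVP1, 0.62, 0.71 and 0.71 for DHAR1, 0.10, 0.41 and 0.41 for ERD10, 0.38, 1.08 and 1.12 for FAR1, 0.23, 0.23 and 0.24 for KUP5, 0.12, 0.10 and 0.11 for NHX2, 0.56, 0.53 and 0.56 for NHX5, and 0.17, 0.12 and 0.12 for PIP2;1. Without NaCl shoot replicate 2 they were 0.26 for ABI1, 0.41 for DHAR1, 0.45 for ERD10, 1.53 for FAR1 and -0.13 for PRODH1, and AHA1 was 0.0731 without NaCl shoot replicate 3. The range over left-out libraries was -1.04 to 0.26 for ABI1, -0.28 to 0.0731 for AHA1, -0.27 to 0.41 for DHAR1, -0.96 to 0.45 for ERD10, -0.79 to 1.53 for FAR1, -0.13 to 0.86 for PRODH1 and -0.21 to 0.55 for CIPK6. CIPK6 was -0.0038 with TMM without markers, and -0.05, -0.21 and -0.07 without NaCl root replicate 3, NaCl shoot replicate 1 and NaCl shoot replicate 3. The cause was not tested.

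Whether equal replicate numbers pair the samples is not stated. Same-numbered NaCl roots and shoots had correlated deviations of 0.0851 to 0.208, and differently numbered ones of -0.136 to 0.0211, so that each correlated best with its own number. Same-numbered control roots and shoots had 0.179 to 0.23 and control and NaCl shoots 0.155 to 0.36. Over the diploid groups same-numbered libraries ranged from -0.0038 to 0.36, but the lowest was a control root against a NaCl shoot, from different media. Pairing was set to need every pair above 0.1, which replicate 2 of the NaCl roots and shoots missed at 0.0851. The numbers were therefore not taken as pairs, and the correlations do not settle whether they mark shared plants. With a replicate block 87 genes were called for organ by NaCl, 1 of them in the lists (PIP2;1, -1.30), and the uncalled FAR1 changed sign to 0.0465 (0.46 with only the 6 NaCl libraries). At this depth genes with few counts, such as NCED9, TIP3;1 and PYL6, had calls that depended on single libraries.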
